A study of Arvicanthis niloticus with 59 samples.

Results

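The genes described here carry the insulin and insulin-like growth factor signal: the ligands Igf1 and Igf2, the receptors Insr and Igf1r, the adaptors Irs1 and Irs2, the kinase genes Pik3r1, Akt1 and Akt2, and the transcription factor Foxo1. They were chosen by name, and all 10 were among the 18970 genes of the deposited tables. The tables come from RNA-seq of polyA RNA in Arvicanthis niloticus, the Nile grass rat, which is active by day. They hold 59 libraries from 48 sites in 22 organs of 4 animals named T3F, T173F, T426 and T424, labelled as healthy and untreated. The labels used here name no strain or age. The organs compared were fat (4 libraries of T3F and T173F), skeletal muscle (2 libraries, T3F and T426), heart (2 libraries, the right atrium of T3F and the right ventricle of T173F) and brain (8 libraries of T3F and the hippocampus of T426). A library labelled liver of T426 and a library labelled left lung lobe of T3F, both rich in hepatocyte transcripts, were set beside these organs.

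Insulin and the insulin-like growth factors bind receptor tyrosine kinases, which phosphorylate adaptor proteins of the IRS family. The adaptors recruit phosphoinositide 3-kinase through its regulatory subunit, AKT kinases are activated, and AKT keeps FOXO1 out of the nucleus. In fat and muscle the pathway is known for glucose uptake, in liver for control of glucose output, and the liver is the main source of circulating IGF1 in rodents.

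Depth ranged from 678819 to 41309569 expected counts per library, with a median of 16406604. T3F gave 38 libraries at a median of 18420427 and T426 gave 8 at a median of 2512942, so T426 values are the less precise. Summed marker genes bore out the labels of fat, muscle, heart and brain. The adipocyte genes summed to 36580 to 63840 TPM (transcript abundance corrected for gene length and library total) in fat and to at most 75.7 in brain. The hepatocyte gene Alb was at 54240 TPM in the liver library of T426 and 71560 in the library labelled lung of T3F, whereas the alveolar gene Sftpc was at 0 and 3.85 there. The library labelled liver of T3F carried the reverse, with Sftpc at 23830 and Alb at 398, and is not counted as liver. The marker genes of the library labelled pancreas of T173F went against its label too. Some libraries held transcripts of other tissues. The 7 spermatid genes summed to 44620 TPM in the hippocampus of T426, against 85.6 to 147 in the other brain libraries. The 7 pancreatic acinar genes summed to 14900 in the muscle of T3F, against 124 in that of T426, and the 6 adrenal cortex genes to 12690 in the fat labelled adrenal gland. Their part in the results was not tested. Where leaving out the hippocampus of T426 or the muscle of T3F ended a call of the 10 genes between 2 organs, the value without it is given below.

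TPM corrects for the length of the gene model. The model lengths implied by count and TPM differed widely, from 0.0918 of the median gene's for Foxo1, 0.214 for Irs1 and 0.422 for Irs2 to 1.67 for Pik3r1 and 3.29 for Akt2. Levels of different genes are therefore comparable only as far as these models hold, whereas a gene's levels across libraries share 1 model.

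Across the 59 libraries Igf1 had the widest span above its median of the 10 genes, from 0.239 to 403 TPM around a median of 8.80. Foxo1 reached 1111 TPM around a median of 71.8, Igf1r 174 around 11.1, and Irs1 290.2 around 30.7. Insr, Irs2, Pik3r1, Akt1 and Akt2 were more even, with maxima 2.92 to 5.05 times their medians. The pancreas libraries, the femur of T426 and the testis were low for most of these genes, as the map of levels by site shows. The acinar genes summed to 390400 TPM in the pancreas of T3F, and the spermatid genes to 142400 in the testis and 22510 in the femur of T426. Their part in the low levels was not tested.

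**Figure D1:**
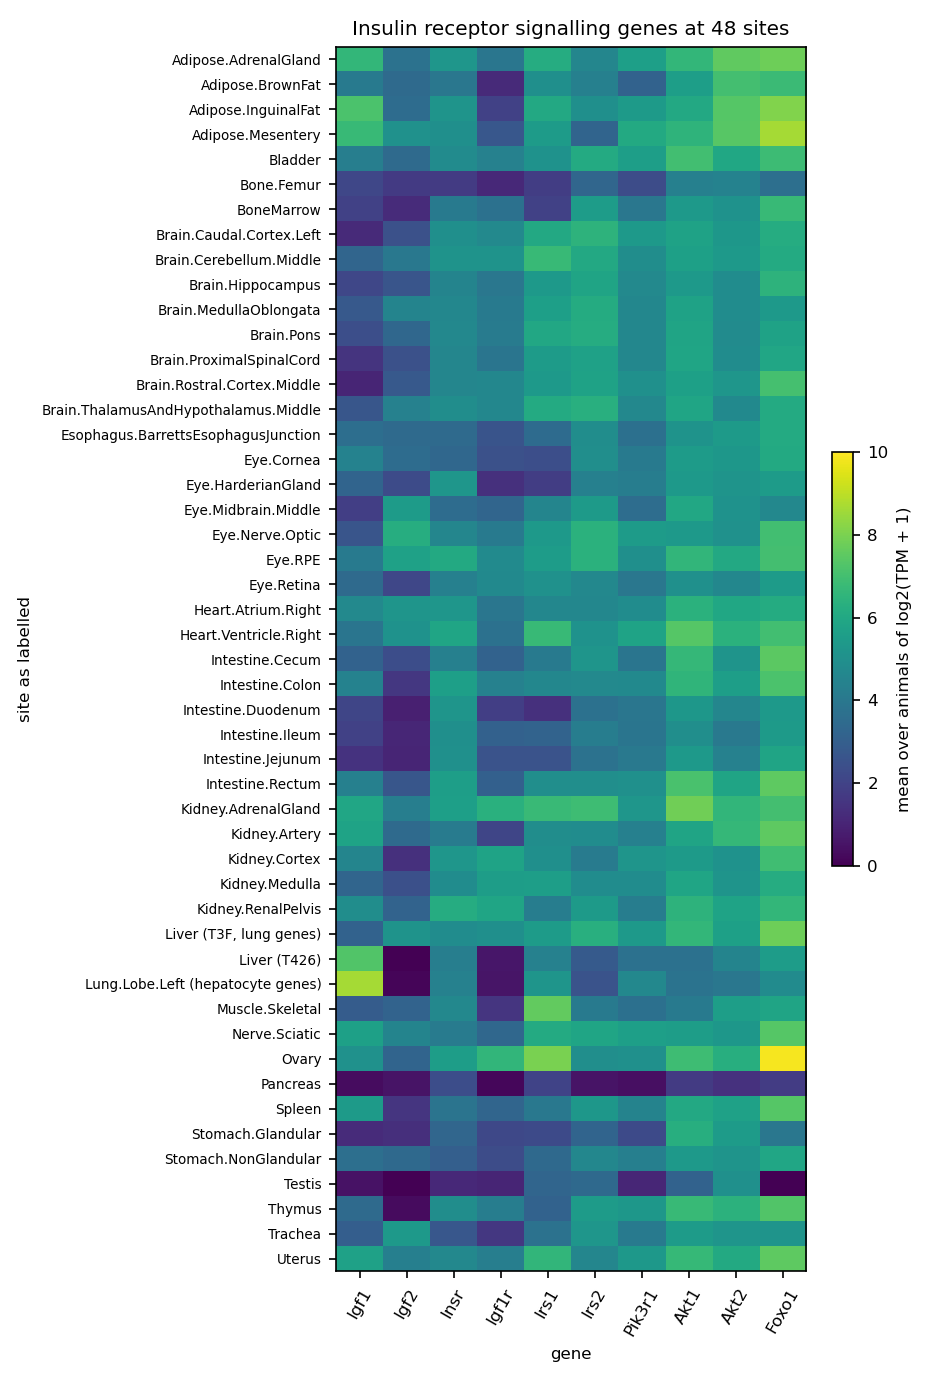
Level of each gene (columns) at each site (rows), as the mean over animals of log2(TPM + 1), with the liver libraries of T426 and T3F on separate rows. Foxo1 in the ovary is the brightest cell, Igf1 stands out in the library labelled lung with hepatocyte genes, and the pancreas and testis rows are dark for most genes.

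The joint test of fat, muscle, heart and brain called 7 of the 10 genes at an adjusted p below 0.05 (edgeR quasi-likelihood test, counts summed within each animal), where 38.1% of all genes tested were called. Igf1, Igf2, Insr, Irs1, Akt1, Akt2 and Foxo1 were called. Igf1r (adjusted p = 0.15), Irs2 (0.565) and Pik3r1 (0.0604) were not. Over 16 alternatives Igf1 and Akt2 kept this call, Akt1 lost it in 1, Irs1 and Foxo1 in 2, Igf2 in 4 and Insr in 7. Fat differed from muscle in 2 of the 10 genes (14.2% of all genes called), from heart in 0 (6.14%) and from brain in 3 (28.1%). Muscle differed from heart in 1 (4.09%) and from brain in 4 (28.9%), and heart differed from brain in 6 (24.7%). All 13 calls against brain were in the direction of less in brain. Of all genes, 13.4% were called higher in fat than in brain, 14.1% in muscle and 12.2% in heart. With library totals, Irs1 was called higher in muscle than in brain, and Igf1r and Akt1 lower (4.96% and 34.9% of all genes). Fat against brain then called 3 and heart against brain 4, all less in brain (8.57% and 7.65% of all genes). Of the 2 calls between fat and muscle, 1 was higher in fat (6.85% of all genes) and 1 lower (7.39%). DESeq2 called 5 there, 4 of them higher in fat (21.3% of all genes called). Library totals also gave 5, all higher in fat, namely Igf1, Pik3r1, Akt1, Akt2 and Foxo1 (21.8%). The call between muscle and heart was lower in muscle (1.69%, beside 2.4% higher). For fat against heart 2.79% of all genes were higher in fat and 3.34% lower. Beside the 0 for fat against heart, DESeq2 called 3 (12.3% of all genes). With the animal as a block the joint test called 3 of the 10 genes (25.3% of all genes), fat against muscle 1 (6.48%), muscle against heart 0 (1.07%) and heart against brain 2 (14.1%), so calls over all genes fell too.

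The scaling between organs bears on these counts. With library totals in place of TMM factors, the median of all genes moved by 0.75 on the log2 scale for fat against muscle, by −0.50 for fat against brain, by −0.70 for muscle against heart, by −1.24 for muscle against brain and by −0.55 for heart against brain, and by 0.02 for fat against heart. The share of called genes that were higher in the first organ then went from 48.1% to 81.2% for fat against muscle, from 47.8% to 30.8% for fat against brain and from 58.7% to 15.5% for muscle against heart. For muscle against brain it went from 48.6% to 12.4%, and for heart against brain from 49.5% to 31%. Each called difference of the 10 genes between 2 organs kept its direction under both scalings, and calls that ended are named beside them below. Over all genes, 228 of the 4962 called for muscle against brain turned direction, and 0 in the other 5 pairs. TPM levels carry no TMM factor, so the order of the organs in TPM can differ from that in library-scaled counts (CPM) with TMM factors, the scale of the tests. Levels below are in TPM unless CPM is named. CPM per animal is given beside them for some, but not all, of the cases where muscle or brain changed place.

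Igf1, the growth factor that hepatocytes and other cells secrete under growth hormone, was high in fat and low in brain. Its levels in fat were 142.7 TPM in inguinal fat, 106 in mesentery, 98.5 in the fat labelled adrenal gland and 15.9 in brown fat. Muscle held 8.80 (T3F) and 4.85 (T426), heart 25.2 (atrium) and 13.9 (ventricle), and the 9 brain libraries 1.06 to 8.68 with a median of 3.43. The 3 white fat depots lay above all libraries of muscle, heart and brain, whereas brown fat lay between the heart libraries. In CPM the muscle of T3F, at 23.0, lay above the ventricle at 17.9. Brown fat, marked by Ucp1 at 3399 TPM against 496.5 in inguinal fat, also had the lowest sum of the fibroblast and endothelium genes among the fat libraries, 1294 against 2346 to 9006. In bulk tissue, fewer cells of a type and less RNA per cell cannot be told apart.

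Per animal, Igf1 was 90.7 ± 16.1 TPM in fat, 19.5 ± 7.96 in heart, 6.83 ± 2.79 in muscle and 3.69 ± 0.368 in brain (mean ± SD, n = 2 animals each). In fat, heart and brain the animals gave different sets of sites, so these SDs mix animal and site. The fat mean of T3F joins brown fat at 15.9 and inguinal fat at 142.7. Fat exceeded brain by 5.06 ± 0.63 on the log2 scale (± SE, adjusted p = 0.00201), a call kept in all 16 alternatives run. Fat exceeded muscle by 2.81 ± 0.57 (adjusted p = 0.0189), and this call ended without the fat of T173F (2.79, adjusted p = 0.0576) and without the muscle of T426 (2.32, adjusted p = 0.103). Heart exceeded brain by 3.02 ± 0.58 (adjusted p = 0.0104), which ended without the hippocampus of T426 (2.87, adjusted p = 0.0563). Muscle exceeded brain by 2.25 ± 0.57 (adjusted p = 0.0245). Without the muscle of T3F that difference was 1.33 (adjusted p = 0.207), without the brain of T3F 2.58 (adjusted p = 0.0673), without the hippocampus of T426 2.13 (adjusted p = 0.0994) and with library totals 0.94 (adjusted p = 0.155). Fat against heart, at 2.03 ± 0.54, was not called (adjusted p = 0.0798).

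Igf2, the growth factor best known from fetal growth, followed another order. Heart held 36.4 and 33.4 TPM, fat 10.03 to 32.0 with the mesentery highest, muscle 7.80 and 8.21, and brain 4.54 to 21.9 with a median of 5.98. Heart lay above every library of the other 3 organs. In CPM muscle, at 18.5 and 13.3, overlapped fat (22.4 and 14.5) and lay above brain (9.44 and 3.61). Heart exceeded brain by 2.73 ± 0.53 (log2 ± SE, adjusted p = 0.011), again kept in all 16 alternatives. No other pair of the 4 organs was called for Igf2. The highest levels of the whole series were in the optic nerve at 74.6 TPM, the sciatic nerve of T3F at 61.2, the retinal pigment epithelium at 52.4 and the library named midbrain at 44.1. The sciatic nerve of T426, a library of 2590940 counts, held 7.31. That library also held 78860 TPM over the acinar genes, against 5244 in T3F.

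Brain Igf2 was uneven. Medulla oblongata (21.9 TPM), thalamus with hypothalamus (20.3) and cerebellum (15.0) held the most, and spinal cord (4.54) and caudal cortex (4.57) the least. The 7 listed genes of meninges and choroid plexus, tissues that line the brain and its ventricles, summed to 8042 TPM in medulla, 188 in thalamus with hypothalamus and 3204 in cerebellum, most of the first and last being Ttr, at 7643 and 2997. They summed to 338 in spinal cord and 69.4 in caudal cortex, and to 1190 in the optic nerve and 314 in midbrain. Ttr was at 33.8 TPM in thalamus with hypothalamus, 276 in spinal cord, 4.82 in caudal cortex, 149 in the optic nerve and 6.30 in midbrain. With Ttr included, the order of the sum differed from that of Igf2. The order without Ttr and the part of these cells in the Igf2 level were not tested.

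**Figure D2:**
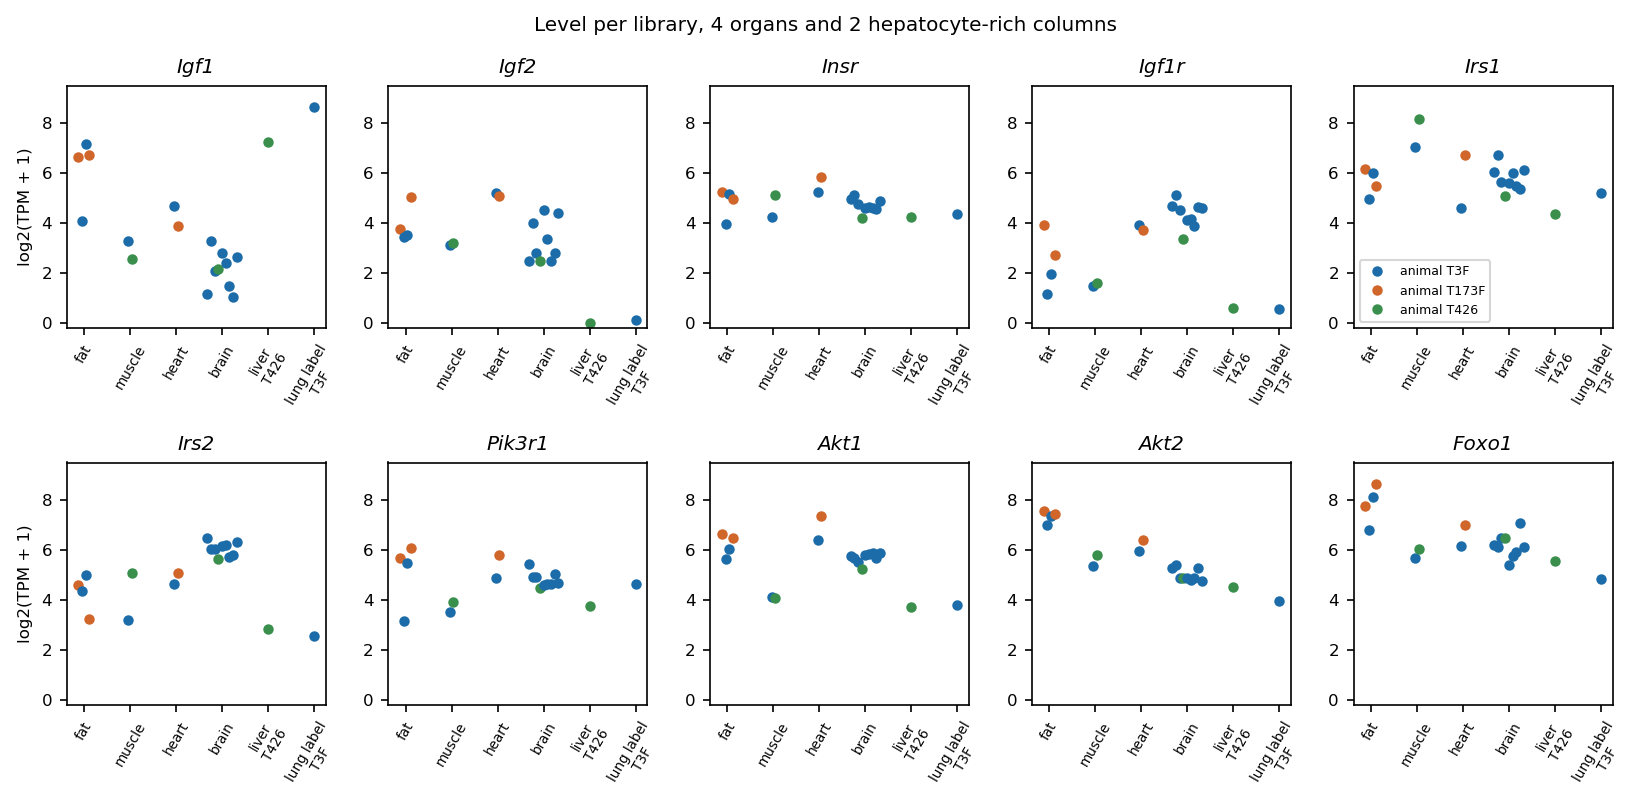
Level of each gene as log2(TPM + 1) per library, coloured by animal, in fat, muscle, heart, brain, the liver of T426 and the library labelled lung of T3F. The white fat depots and both hepatocyte-rich libraries are high for Igf1, both hepatocyte-rich libraries are at or near 0 for Igf2 and Igf1r, and muscle is high for Irs1 and low for Akt1.

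Insr, the insulin receptor, varied less than its ligands' genes. It was at 36.7 and 57.6 TPM in heart, 17.8 and 33.9 in muscle, 14.5 to 36.9 in fat and 17.7 to 34.5 in brain, so fat, muscle and brain overlapped and both heart libraries lay above brain. In CPM per animal there was no overlap of brain (26.0 and 15.2) with fat (36.7 and 37.9) or muscle (46.7 and 60.8). Heart exceeded brain by 1.65 ± 0.35 (log2 ± SE, adjusted p = 0.0146) and muscle exceeded brain by 1.36 ± 0.35 (adjusted p = 0.0249). Both calls ended without the hippocampus of T426 and with library totals, where they were 1.14 (adjusted p = 0.0804) and 0.23 (adjusted p = 0.669). Without the hippocampus of T426 they were 1.33 (adjusted p = 0.0674) and 1.09 (adjusted p = 0.0996). The heart call also ended without the ventricle of T173F (1.43) and with the animal as a block (1.47, adjusted p = 0.0899), and the muscle call without the muscle of T3F (1.55) or of T426 (1.17). The highest Insr levels were in the renal pelvis, 79.3 and 63.8 TPM, the retinal pigment epithelium at 66.6 and the ovary of T3F at 71.6, against 29.7 in the ovary of T173F.

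Igf1r, the receptor for both growth factors, was low in muscle and in most fat among the 4 organs. It was at 1.81 and 2.03 TPM in muscle, 1.26 to 14.1 in fat, 14.3 and 12.3 in heart, and 9.44 to 33.9 in brain. Muscle lay below every heart and brain library, and fat reached above the ventricle in 1 library. Outside these organs, levels below muscle were found in both libraries labelled pancreas (0 and 0.254), the femur of T426 (0.291) and both hepatocyte-rich libraries. The duodenum of T426 (0.842), the testis (1.05) and the Harderian gland (1.61) lay below muscle too. No pair of the 4 organs was called, with muscle against heart at −2.13 ± 0.79 (adjusted p = 0.172) and muscle against brain at −1.79 ± 0.78 (adjusted p = 0.127, and −3.0 with adjusted p = 0.0278 on library totals). The ovary of T3F was highest at 174 TPM and that of T173F held 50.7. The adrenal gland held 80.5, the renal pelvis 50.3 and 65.8, and the kidney cortex 54.5.

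Of the summed TPM of both receptor genes, Insr made up 90.8% to 94.3% in muscle, 72.3% to 92.5% in fat, 72.0% to 82.4% in heart and 49.2% to 65.2% in brain. Muscle and brain did not overlap, nor did fat and brain. Over the 57 libraries with at least 20 counts for the pair the median share was 65.2%. The 2 ligand genes were split in another way. Igf2 was 57.7% to 85.0% of their sum in brain, 59.1% and 70.6% in heart, 47.0% and 62.8% in muscle, and 6.95% to 38.7% in fat, so fat did not overlap the other organs.

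**Figure D3:**
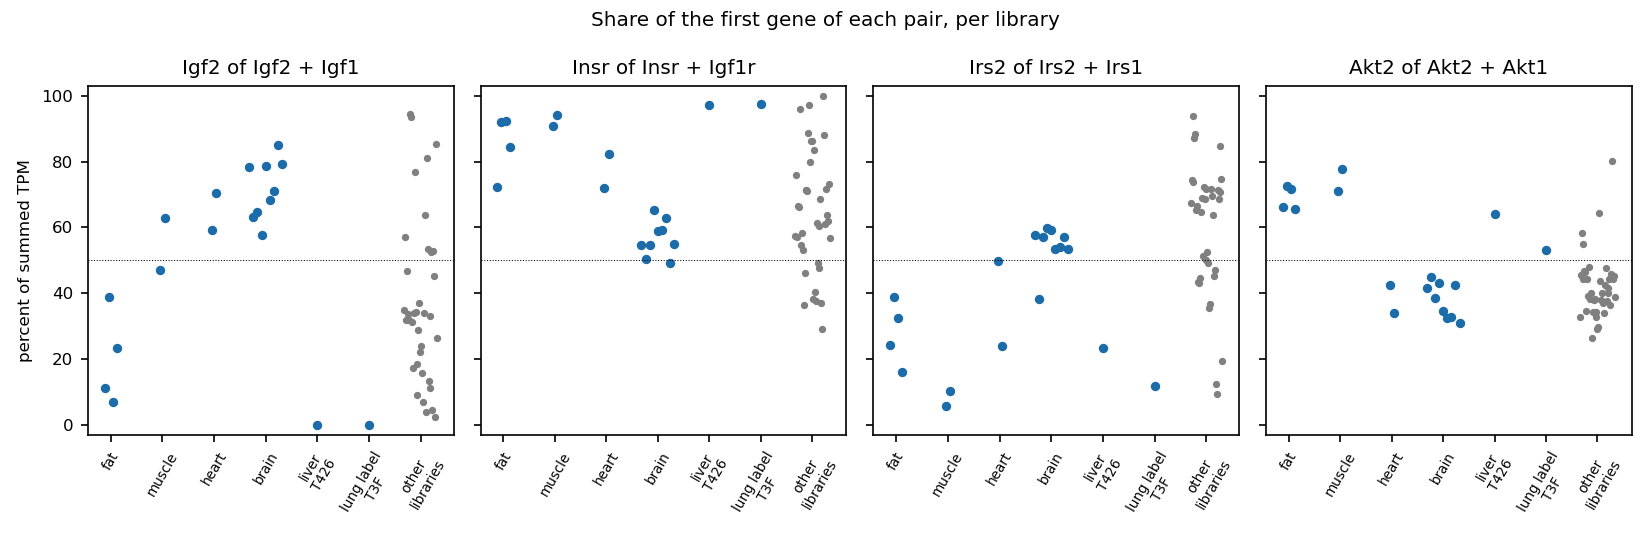
Share of the first gene in the summed TPM of each gene pair, in percent, with 1 point per library that had at least 20 counts for the pair. Akt2 exceeds 50% in fat, muscle and both hepatocyte-rich libraries and lies below 50% in heart and brain, and Insr exceeds 90% in muscle and both hepatocyte-rich libraries.

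Irs1 and Irs2 encode the adaptors that link the receptors to phosphoinositide 3-kinase. Irs1 was at 290.2 TPM in the muscle of T426 and 130.3 in that of T3F, above every library of fat (30.4 to 71.2), heart (23.7 and 105) and brain (32.9 to 105, median 48.8). Fat was lower than muscle by 2.67 ± 0.67 on the log2 scale (fat minus muscle −2.67, adjusted p = 0.0397). This call ended with library totals (−2.02, adjusted p = 0.0717), with the animal as a block (adjusted p = 0.0863) and on leaving out any of the 4 fat and muscle units (−2.34 to −2.95, adjusted p = 0.0949 to 0.176). Muscle exceeded brain by 3.27 ± 0.69 (adjusted p = 0.0131), 2.91 without the hippocampus of T426 (adjusted p = 0.0605), 2.95 without the muscle of T426 (adjusted p = 0.0614) and 3.56 without that of T3F (adjusted p = 0.0437). Muscle against heart, 2.34 ± 0.67, was not called by edgeR (adjusted p = 0.0973) and was called by DESeq2 (adjusted p = 0.00868). Only the ovary, at 261 and 239 TPM, was in the range of muscle.

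Irs2 had no call among the 4 organs. It was at 49.2 to 88.5 TPM in brain, 23.5 and 33.0 in heart, 8.43 to 30.7 in fat, and 8.07 and 33.0 in muscle, so every brain library lay above every library of the other 3. In CPM brain, at 25.7 and 16.5, overlapped the ventricle (16.7) and the muscle of T426 (23.2). On the TMM scale the difference of fat from brain was −0.97 ± 0.61 (adjusted p = 0.254), and of heart from brain −0.48 ± 0.60 (adjusted p = 0.592). Irs2 was 5.83% and 10.2% of the summed Irs1 and Irs2 TPM in muscle, 16.1% to 38.8% in fat, 24.0% and 49.7% in heart, and 38.1% to 59.9% in brain. The adrenal gland held the most Irs2 at 119 TPM. The library labelled liver of T426 held 6.06 and that labelled lung of T3F 4.92, both under every library of the 4 organs, whereas in CPM the first, at 6.91, was above the fat of T173F at 6.57.

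Pik3r1 encodes the regulatory subunit that docks on the IRS adaptors. It was at 7.95 TPM in brown fat and 42.9 to 65.7 in the other fat libraries, 28.3 and 55.0 in heart, 21.0 to 41.7 in brain, and 10.3 and 13.9 in muscle. Muscle lay below all heart and brain libraries and above brown fat, but in CPM, at 41.9 and 38.8, within the range of brain (42.5 and 27.9). The difference of heart from brain, 1.32 ± 0.39 (log2 ± SE, adjusted p = 0.0473), had the highest adjusted p of the calls between pairs of organs and was lost in 9 of its 16 alternatives, among them library totals (0.80, adjusted p = 0.234) and leaving out either heart library (1.69 and 0.91), either brain animal (1.73 and 1.06) or either muscle library (1.32 in both). Muscle against brain was 0.19 ± 0.39 and turned to −1.01 with library totals, both uncalled.

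Akt1 and Akt2 encode the AKT kinases, of which AKT2 is the form tied to glucose uptake in fat and muscle. Akt2 was at 128 to 189.9 TPM in fat, 61.5 and 83.2 in heart, 40.3 and 54.8 in muscle and 25.8 to 41.0 in brain. Fat lay above all libraries of the other organs, and brain overlapped muscle only at its highest library, the cerebellum. In CPM muscle, at 323 and 301, lay far above brain (94.05 and 73.7) and at the level of heart (285.2 and 329.7). Fat exceeded brain by 2.94 ± 0.36 (log2 ± SE, adjusted p = 0.00187), kept in all 16 alternatives. Muscle exceeded brain by 1.90 ± 0.34 (adjusted p = 0.00771) and heart exceeded brain by 1.87 ± 0.34 (adjusted p = 0.00901). Without the hippocampus of T426 these were 1.78 (adjusted p = 0.0532) and 1.71 (adjusted p = 0.0649). Without the muscle of T3F muscle against brain was 1.84 (adjusted p = 0.0474), and it was 0.69 with library totals (adjusted p = 0.181). Heart against brain was 1.77 with the animal as a block (adjusted p = 0.0634).

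Akt1 ordered the organs differently. It was at 83.1 and 162 TPM in heart, 48.02 to 97.5 in fat, 37.0 to 58.0 in brain, and 16.3 and 15.7 in muscle, where it lay below every library of the other 3 organs. In CPM muscle, at 43.9 and 28.95, overlapped brain (52.3 and 32.4). Muscle against brain was −0.21 ± 0.39 (adjusted p = 0.718), and −1.45 with library totals, where it was called (adjusted p = 0.0251). Muscle was lower than heart (muscle minus heart −2.22 ± 0.41, adjusted p = 0.0323), the single gene of the 10 called there. The call ended with the animal as a block (−1.67, adjusted p = 0.116) and without the muscle of T3F (−2.57, adjusted p = 0.133) or of T426 (−1.97, adjusted p = 0.188). It also ended without the heart of T3F (−2.51), the heart of T173F (−1.81) or the fat of T173F (−2.18, adjusted p = 0.0503). Heart exceeded brain by 2.02 ± 0.40 (adjusted p = 0.0119), 1.72 without the hippocampus of T426 (adjusted p = 0.0635), 1.60 without the ventricle of T173F (adjusted p = 0.0528) and 1.46 with the animal as a block (adjusted p = 0.0529). Akt2 made up 71.2% and 77.7% of the summed Akt1 and Akt2 TPM in muscle and 65.6% to 72.7% in fat, against 34.0% and 42.5% in heart and 30.8% to 45.0% in brain. Fat and muscle did not overlap heart and brain. Akt2 was over 50% in 12 of the 58 libraries with at least 20 counts for the pair, among them all 6 of fat and muscle.

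Foxo1, the transcription factor that AKT restrains, was at 396 TPM in mesentery, 274 in inguinal fat, 218 in the fat labelled adrenal gland and 111 in brown fat. Heart held 69.3 and 126, brain 41.3 to 133 with a median of 68.5, and muscle 49.8 and 64.7. In CPM muscle (11.1 and 9.84) lay above brain (5.83 and 6.37). The white depots lay above all libraries of the other organs and brown fat lay among heart and brain. Fat exceeded brain by 2.14 ± 0.39 (log2 ± SE, adjusted p = 0.00731), kept in all 16 alternatives. Fat against muscle, 1.35 ± 0.39, missed the threshold (adjusted p = 0.0586) and passed with DESeq2 (1.31, adjusted p = 0.0253). The ovary was far above the rest, at 1111 TPM in T173F and 799 in T3F, and Foxo1 was listed at 0 in the testis library, which had 678819 counts in all.

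**Figure D4:**
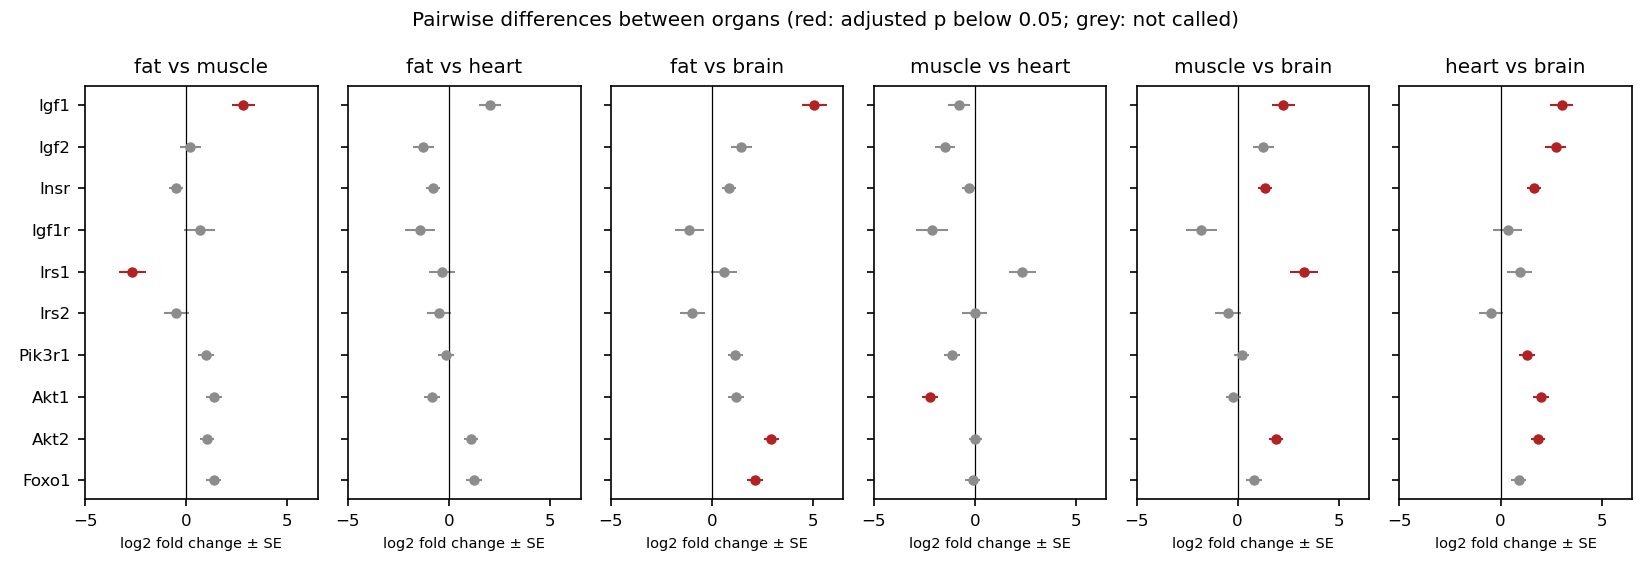
Log2 fold change (first organ over second) with its SE for the 10 genes in the 6 pairs of organs, with calls at an adjusted p below 0.05 in red. Igf1 and Akt2 are called in all 3 pairs with brain, Akt1 is the single call for muscle against heart, and no gene is called for fat against heart.

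In the hepatocyte-rich libraries the 2 ligand genes lay at opposite ends. Igf1 was at 154 TPM in the liver of T426 and 403 in the library labelled lung of T3F, above all 17 libraries of the 4 organs. Each is 1 library with no replicate of its tissue, so its differences from the mean of the 4 organs are given below as values with no test. The Igf1 difference was 4.44 on the log2 scale for the liver of T426 and 5.82 for the library labelled lung, and 3.72 and 4.99 with library totals. The median over all genes was −0.72 and −0.26, and moved by −0.75 and −0.86 with library totals.

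Igf2 was at or near 0 there. The liver of T426 had 0 counts, so against a floor of 3 counts in that library Igf2 was at least 3.46-fold higher in brain, 8.44-fold in muscle, 9.80-fold in fat and 23.6-fold in heart, on the CPM scale with TMM factors. The library labelled lung had 3 counts. The ratio to it was 27.3 for brain (95% counting interval 9.36 to 133) and 186 for heart (63.8 to 904). These bounds and intervals cover only the counting error of the hepatocyte-rich library, with the organ mean taken as exact. Igf1r had 2 counts in the liver of T426 and 14 in the library labelled lung. Against the 2 counts, the ratio was 9.26 for brain (2.56 to 76.4), 11.9 for heart (3.28 to 97.9), 4.34 for fat (1.2 to 35.8) and 2.65 for muscle (0.734 to 21.9), an interval that includes no difference. Against the 14 counts it was 10.4 for brain (6.22 to 19.1) and 2.99 for muscle (1.78 to 5.47). Insr was at 18.2 and 19.9 TPM, within the range of fat and brain, but in CPM, at 53.4 and 57.8, above both and within the range of muscle. It made up 97.1% and 97.6% of the 2 receptor genes. Akt1, at 12.2 and 12.9 TPM, and Akt2, at 21.7 and 14.5, lay below every library of the 4 organs in TPM. In CPM the order was another, with Akt2, at 194 and 128, above brain, and Akt1, at 36.4 and 38.1, above the hippocampus of T426 and the muscle of T426.

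The other genes of the pathway were read from 6 lists. Of all genes, 14.7% were called lower in fat than in brain, 14.9% lower in muscle and 12.5% lower in heart. Without the hippocampus of T426, and without the muscle of T3F, the differences between organs named below kept their calls, except that of Igfbp2 in muscle, which ended without the muscle of T3F (−4.10, adjusted p = 0.0753). With library totals they kept them too, except Grb14 in fat against heart (−2.46, adjusted p = 0.0546). Against brain, the ligand and binding protein list had 6 of 12 tested genes higher in fat, 7 higher and 1 lower in muscle, and 7 higher and 1 lower in heart. Its median log2 difference from brain was 2.46 in fat, 2.25 in muscle and 1.98 in heart, beside −0.13, −0.25 and −0.11 over all genes. Without the muscle of T3F muscle had 3 higher and 0 lower (5.95% and 5.73% of all genes), and without the hippocampus of T426 3 higher and 1 lower (7.21% and 10.9%). With library totals it had 4 higher and 2 lower in muscle (4.96% and 34.9% of all genes). Igfbp4, which binds the growth factors, exceeded brain by 4.67 ± 0.57 in fat (log2 ± SE, adjusted p = 0.0019). Igfbp6, which favours IGF2, exceeded it by 5.42 ± 0.75 in heart (adjusted p = 0.00358). Igfbp2 was the gene that was lower, at −3.87 ± 0.79 in muscle and −3.12 ± 0.72 in heart. Ide, the insulin-degrading enzyme, exceeded brain by 2.80 ± 0.30 in muscle (adjusted p = 0.0014). Ins2, the insulin gene, was at 19770 TPM in the pancreas of T3F and 0 in that of T173F. It was also at 917 in the muscle of T3F and 1902 in the sciatic nerve of T426, the libraries with acinar transcripts.

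Among 18 output genes, fat had 7 higher and 1 lower than brain, muscle 7 higher and 1 lower, and heart 5 higher, with medians of 1.14, 0.86 and 0.57. With library totals the median in muscle turned to −0.33, beside −1.49 over all genes. It then had 4 higher and 3 lower (4.96% and 34.9% of all genes). On leaving out the hippocampus of T426, the medians in fat, muscle and heart were 1.38, 1.01 and 0.53. Those over all genes were −0.04, −0.14 and −0.06. Fewer of the 18 genes were then called in each organ, as over all genes. Slc2a4, the insulin-responsive glucose transporter GLUT4, was at 746 to 1023 TPM in fat, 1468 and 829.8 in muscle, 402 and 983 in heart and 3.24 to 14.3 in brain. It exceeded brain by 7.14 ± 0.61 in fat (log2 ± SE, adjusted p = 0.000881), 8.18 ± 0.64 in muscle and 6.82 ± 0.60 in heart. Gys1, the glycogen synthase of muscle, exceeded brain by 4.95 ± 0.54 in muscle (adjusted p = 0.00146). Pde3b, the phosphodiesterase that acts in the antilipolytic response, was higher in fat than in muscle by 5.87 ± 0.69 and than in heart by 3.44 ± 0.58. Srebf1, a lipogenic factor, was higher in fat than in muscle by 3.09 ± 0.38 and than in heart by 3.78 ± 0.39.

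Of 12 further genes of the kinase arm, 4 were lower in fat than in brain, with a median of −0.39. Without the hippocampus of T426 the median was −0.65, beside −0.04 over all genes, and fewer were called, as over all genes. Library totals gave 5 lower (19.3% of all genes) and a median of −0.89, beside −0.62 over all genes. Of 10 receptors and adaptors, fat had 4 higher and 3 lower than brain, with a median of 0. Without the hippocampus of T426 the median was −0.36, and again fewer were called. Sh2b2, an adaptor of the insulin receptor in fat cells, was higher in fat by 4.87 ± 0.41 than in brain, 5.17 ± 0.42 than in heart and 4.07 ± 0.40 than in muscle.

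Of 13 brakes on the pathway, fat had 2 higher and 2 lower than brain, muscle 2 and 2, and heart 3 and 1. The medians were 0.28, 0.68 and 0.36. Without the hippocampus of T426 they were 0.18, 0.56 and 0.43, and without the muscle of T3F that of muscle was 0.51. In both settings fewer brakes were called in fat and muscle, as over all genes, and in heart only without the hippocampus of T426. With library totals the medians in fat, muscle and heart turned to −0.36, −0.52 and −0.21, beside −0.62, −1.49 and −0.66 over all genes. Muscle then had 0 brakes higher and 5 lower than brain (4.96% and 34.9% of all genes). Fat had 1 and 2 (8.57% and 19.3%) and heart 3 and 2 (7.65% and 17%). Trib3, an AKT-binding pseudokinase, exceeded brain by 5.11 ± 0.79 in fat, and Grb14, which binds and inhibits the insulin receptor, was higher in heart than in brain by 2.80 ± 0.46 and than in fat by 2.51 (fat minus heart −2.51 ± 0.46). Of 6 growth hormone genes, 3 were higher in fat than in brain and 4 each in muscle and heart. Their medians in fat, muscle and heart were 2.31, 2.49 and 2.87. On leaving out the hippocampus of T426 the medians were 2.06, 2.17 and 2.86, with fewer calls in fat and heart. Without the muscle of T3F they were 2.31, 2.52 and 2.88, with fewer calls in muscle and heart. Ghr, the growth hormone receptor, exceeded brain by 6.71 ± 0.62 in fat, 4.70 ± 0.57 in muscle and 3.65 ± 0.54 in heart.

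Igfbp1, the binding protein under insulin's control in liver, was at 68.3 TPM in the liver of T426 and 38.9 in the library labelled lung, and at most 0.651 in the organs. Igfals, which stabilises circulating IGF1, was above the mean of the 4 organs by 3.39 and 2.15 on the log2 scale. Gys2, the liver glycogen synthase, was at 235 and 273 TPM against at most 0.461 in the organs, and Gys1 differed from the organs by −4.33 and −4.89. Slc2a4 differed by −4.07 and −6.37, and Grb10, a receptor-binding inhibitor, by −5.46 and −4.69. The Ghr difference was 2.40 and 2.87, and 1.59 and 1.95 with library totals. These too are values of 1 library each, with no test.

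At 10 sites with libraries of 2 animals (femur, hippocampus, retina, duodenum, renal pelvis, liver label, muscle, sciatic nerve, ovary and pancreas), the joint test called 4 of the 10 genes, where 41.4% of all genes were called. Igf1 (adjusted p = 0.00658) kept its call in all 25 alternatives. Foxo1 (adjusted p = 0.0236) lost it without either ovary library. Igf1r (adjusted p = 0.0292) lost it in 8 alternatives and Irs1 (adjusted p = 0.0488) in 17. Without the liver label of T3F and the pancreas of T173F, whose marker genes went against their labels, 6 of the 10 genes and 61.3% of all genes were called. Without the ovary of T3F, 1 was called (35.9% of all genes), and without that of T173F 2 (36.8%).

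Across the 59 libraries, Foxo1 ranked with Akt2 (Spearman's rho 0.736), Pik3r1 (0.713) and Akt1 (0.701), and Akt1 with Akt2 (0.733). Irs2 and Igf1 had a rho of 0.00871. These are descriptions over libraries that share animals and, in brain, gut and eye, an organ. Among 18174 genes with a mean of at least 1 TPM, those nearest to Igf1 were the complement proteases C1s1 (0.826) and C1s2 (0.816) and Cyp39a1 (0.818). Near Igf1r were Tia1 (0.877) and Zfp444 (0.872), and near Igf2 Ptprm (0.831), Fgfr1 (0.821) and Heyl (0.801). Akt2 was nearest to Plxnd1 (0.859), Elk3 (0.845) and Zhx2 (0.83), Akt1 near Flii (0.839) and Sox4 (0.832), and Foxo1 nearest to Tpst2 (0.843), Grk5 (0.835) and Swap70 (0.831). Irs1 was nearest to St3gal3 (0.845), Gm9747 (0.844) and Mpdz (0.802), and Irs2 near Arl8a (0.852) and Elmo2 (0.836). The nearest genes of Insr were Mob1b (0.784), Cyb5b (0.774) and 2610507B11Rik (0.758), and those of Pik3r1 were Sptbn1 (0.831), Nedd4 (0.808) and Ski (0.797).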

How the data were processed

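RNA was measured in 59 libraries. The authors deposited expected counts per gene and TPM values, made with RSEM and Bowtie 0.12.8 per the submitters' processing notes; the genome build is not given in the sources used here, and the transcript identifiers are those of mouse genes. TPM was used for levels, on the log2(TPM + 1) scale where a log is named. Expected counts were summed within an animal and organ, rounded, filtered with filterByExpr, scaled with TMM and tested with edgeR 4.0.16 (quasi-likelihood, Benjamini-Hochberg over 17146 genes, 10 units in 1 fit; R 4.3.3). DESeq2 1.42.0 was an alternative. The genes named were the members, up to 4 called genes of each pathway list per comparison, the 3 nearest genes by Spearman's rho, and marker genes; some genes that this rule names are not reported here. Members and lists were chosen with earlier results of these data known. Each organ has 2 animals, and labels do not say how RNA portions relate, so p-values measure the spread between these samples. In fat, heart and brain the animals gave different sets of sites, so animal and site cannot be told apart in that spread. Animals pair some organs. Deviations of paired organs correlated at −0.011 (fat and heart) and 0.071 (muscle and brain) over genes. Tested on simulated data for fat against muscle, the fit returned the set fold sizes on median and made no false call, but called only a minority of the changed genes, so a missing call does not show equal levels. No sequence of these genes was used here.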

Additional observations from a re-analysis of the deposited data

Results flagged for a closer look

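Among the organs with 4 to 10 libraries, 50 combinations of gene and organ were looked at for a library set apart from the rest, and 8 were found. The libraries of an organ are mostly different sites and some of the 8 share a library. Their number is therefore not set against a chance rate. In the adrenal gland, the other kidney-labelled libraries lay far below: Akt1 was at 224.0 TPM against 42.9 to 97.4, Irs2 at 118.7 against 16.8 to 52.7, and Irs1 at 107.2 against 15.2 to 47.9. The adrenal cortex genes summed to 55650 TPM in that library. Igf2 in the mesentery of T173F was at 32.04 TPM, with the other 3 fat libraries at 10.03 to 12.6. Irs1 in the cerebellum was at 104.5 TPM against 32.9 to 68.8 in the other brain libraries, and Pik3r1 in the left caudal cortex at 41.71 against 21.0 to 31.4. Akt2 in the retinal pigment epithelium was at 64.07 TPM against 16.9 to 38.4 in the other eye libraries, and Igf1r in the colon at 19.88 against 0.842 to 7.88 in the other intestine libraries.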

How the results depend on the processing

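Of the called differences between 2 organs, those of Igf1, Akt2 and Foxo1 for fat against brain were kept under every alternative. That of Igf2 for heart against brain was kept too. Each of the other called differences between 2 organs ended in at least 1 alternative. Over all single-gene values, 784 of 916 alternative values stayed on their side of the threshold, 88 lost a call, 44 gained one and 0 turned a called direction. The values of the joint tests among them have no direction. Those of the 2 lone hepatocyte-rich libraries, also among them, rest on a spread assumed to be that of the organs. The animal as a replicate block gave 4340 genes for the joint test (6528 without it), 1111 for fat against muscle (2441), 2922 for fat against brain (4814), 183 for muscle against heart (702), 2420 for heart against brain (4239) and 1476 for the liver of T426 (3604), a lone library whose spread was assumed to be that of the organs. Among the members the block ended the joint calls of Igf2, Insr, Akt1 and Foxo1, the calls of Irs1 for fat against muscle and Akt1 for muscle against heart, and those of Insr, Pik3r1, Akt1 and Akt2 for heart against brain, and changed no other call. Treating each library as its own unit gave 11858 for the joint test, 4488 for fat against muscle, 2362 for fat against heart (1052), 10159 for fat against brain, 1759 for muscle against heart, 7963 for muscle against brain (4962) and 7416 for heart against brain, with libraries of 1 animal then counted as replicates. DESeq2 gave 4048 for fat against muscle, 2332 for fat against heart, 2505 for muscle against heart and 10954 for the 10 sites (7271). Library totals, an alternative chosen after seeing the data, gave 3735 for fat against muscle and 1748 for muscle against heart. Leaving out each unit in turn gave 870 to 2315 genes for fat against muscle, 493 to 959 for fat against heart, 3049 to 4513 for fat against brain and 70 to 657 for muscle against heart. It gave 1989 to 5302 for muscle against brain, 2218 to 4618 for heart against brain and 5667 to 12521 for the 10 sites, where the highest count was without the pancreas of T3F. Where this left an organ with 1 animal, that animal was assumed to vary like the other organs. Without the hippocampus of T426, muscle against brain called 0 of the 10 members (18.1% of all genes) and heart against brain 1 (14.8%). On the CPM scale with TMM factors the site with the highest TPM ranked lower for 6 of the 10 genes, at rank 4 for Insr and Akt2, 3 for Akt1 and 2 for Irs1, Igf1r and Igf2. A pseudocount of 0.1 changed no top site. The causes of these changes were not tested. At 2406977 counts in the liver of T426, Igf2 and Igf1r there rest on 0 and 2 counts.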
